A study of Mus musculus with 6 samples.

Results

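MHC class I genes are described here across 6 RNA-seq libraries of mouse kidney proximal tubule cells: 8 heavy-chain genes (H2-K1, H2-D1, H2-Q4, H2-Q6, H2-Q7, H2-Q10, H2-T22 and H2-T23) and B2m, the gene of the light chain that they share. These 9 genes were taken by name from a table of 52405 genes. H2-Q6 and H2-Q7 were chosen on measured values, because they stand out in the control library and the knockout library that both carry the replicate number 1, so their levels in those libraries are given as a description, with no test. The KO group was 3 libraries from female C57BL/6 mice with a proximal-tubule deletion of Igf1r, which encodes the insulin-like growth factor 1 receptor, and the Ctr group was 3 libraries from control mice of the same sex and strain. Ovaries had been removed at postnatal day 21 in these mice and the kidneys were uninjured, so every library shares both features. Cells were selected from homogenized cortex on a magnetic column by an antibody to prominin-1, which proximal tubule cells carry on their surface, and the labels name no further sort. The sources used here do not give the promoter that drives the deletion, the age at collection or the number of animals behind a library.

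The class I heavy chain pairs with beta-2-microglobulin, the product of B2m, and holds a short peptide made from proteins inside the cell. Classical molecules (H2-K and H2-D in the C57BL/6 mouse) show these peptides to CD8+ T cells, and nearly every nucleated cell makes them, tubule cells included. The Q and T genes encode nonclassical molecules with a narrower set of peptides or receptors. Interferons, NF-kappaB and the transactivator Nlrc5 are known to raise class I transcription through short elements upstream of the start site, and interferon-gamma is known to raise class I on tubule cells.

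Of the 9 genes, 8 lie on chromosome 17 and B2m lies on chromosome 2 (GRCm38, GENCODE M21 annotation, matched by gene identifier). The windows from 250 bases before to 50 bases after the annotated start of 4 of them follow, read 5′ to 3′ on the strand of the gene from RefSeq (GRCm38.p6). H2-Q6 and H2-Q7 are shown because their levels moved together, H2-K1 because it had the highest mean of the heavy chains in both groups, and B2m as the light chain, which lies on another chromosome. Capitals mark exact matches on either strand of GGGATTCCC (the NF-kappaB site of the class I enhancer), GAAANNGAA (the core of the interferon-stimulated response element) and CCAAT (the Y-box core, ATTGG on the other strand).
H2-Q6, chr17:35424600-35424899, plus strand: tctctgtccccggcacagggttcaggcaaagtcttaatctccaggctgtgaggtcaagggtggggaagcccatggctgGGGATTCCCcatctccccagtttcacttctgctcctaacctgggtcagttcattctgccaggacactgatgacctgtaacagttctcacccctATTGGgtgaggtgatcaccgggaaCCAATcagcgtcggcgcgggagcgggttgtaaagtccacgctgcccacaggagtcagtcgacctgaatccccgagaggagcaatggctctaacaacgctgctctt
H2-Q7, chr17:35438905-35439204, plus strand: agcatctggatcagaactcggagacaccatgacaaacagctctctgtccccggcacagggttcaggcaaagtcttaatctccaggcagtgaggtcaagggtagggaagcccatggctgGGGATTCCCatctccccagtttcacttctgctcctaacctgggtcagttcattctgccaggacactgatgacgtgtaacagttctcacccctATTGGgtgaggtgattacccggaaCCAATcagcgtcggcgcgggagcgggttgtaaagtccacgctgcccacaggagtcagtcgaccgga
H2-K1, chr17:34000284-34000583, minus strand: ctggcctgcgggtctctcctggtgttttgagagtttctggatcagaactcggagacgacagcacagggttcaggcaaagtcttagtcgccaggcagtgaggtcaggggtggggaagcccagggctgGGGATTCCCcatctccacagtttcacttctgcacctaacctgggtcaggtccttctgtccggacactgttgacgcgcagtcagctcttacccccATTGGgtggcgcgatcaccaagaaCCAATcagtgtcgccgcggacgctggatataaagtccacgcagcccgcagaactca
B2m, chr2:122147437-122147736, plus strand: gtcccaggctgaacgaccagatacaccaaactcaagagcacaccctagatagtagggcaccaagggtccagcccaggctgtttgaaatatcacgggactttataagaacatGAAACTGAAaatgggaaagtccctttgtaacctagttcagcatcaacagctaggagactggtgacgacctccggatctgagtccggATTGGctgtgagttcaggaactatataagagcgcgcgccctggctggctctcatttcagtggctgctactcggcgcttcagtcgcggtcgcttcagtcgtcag

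The H2-Q6 and H2-Q7 windows had 254 identical bases in 261 aligned columns (97.3%). H2-K1 matched H2-Q6 at 205 of 242 aligned columns (84.7%) and H2-Q7 at 228 of 288 (79.2%). Each alignment covers only the best-matching stretch. These stretches differ in length, so the percentages do not show whether H2-K1 is closer to H2-Q6 or to H2-Q7. GGGATTCCC was present in the windows of H2-K1, H2-D1, H2-Q6 and H2-Q7, and 0.353% of the 32851 windows in the promoter table held it. GAAANNGAA was present in those of B2m, H2-T22 and H2-T23, and 8.56% of all windows held it. CCAAT was present in the windows of 8 of the 9 genes, all except H2-Q10, and 37.4% of all windows held it. No matches overlapped each other in the 4 windows printed. These are matches of letters, and binding was not measured. Only exact matches were sought, so a window without a match may still hold a variant of an element. The stretch agtttcacttctg, which the H2-K1, H2-Q6 and H2-Q7 windows share, is no exact match of GAAANNGAA and was not marked.

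Expression was given as FPKM, fragments scaled by transcript length and library total, so levels are per length and can be set beside each other between genes. The steps of low values put the depth at about 19800000 to 25400000 fragments per KO library and 22000000 to 23000000 per Ctr library. Igf1r, the targeted gene, had 4.78, 7.67 and 5.08 FPKM in KO replicates 1, 2 and 3, against 18.70, 15.29 and 22.73 FPKM in Ctr replicates 1, 2 and 3, so the groups did not overlap. Its log2 difference was −1.55 ± 0.19 (SE; limma, Benjamini-Hochberg adjusted p = 0.267), which missed the threshold of 0.05. Values listed for a group from here on follow the order of its replicates 1, 2 and 3. Along the main axis of variation (50% of the variance in a principal component analysis) both libraries numbered 1 stood apart from the other 4 (−25.1 for KO replicate 1 and −30.6 for Ctr replicate 1, against 11.4 to 15.6). Markers of the proximal tubule (13 genes) summed to 4137 to 4792 FPKM in KO libraries and 3995 to 5497 FPKM in Ctr libraries, and markers of the thick limb, distal tubule and collecting duct (10 genes) summed to 2472 to 3930 FPKM in KO libraries and 2136 to 2918 FPKM in Ctr libraries.

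B2m and the classical heavy chains were among the most abundant transcripts. H2-K1 (ENSMUSG00000061232, chromosome 17, 33996017 to 34000347, minus strand) encodes the H2-K heavy chain. It had 228.32, 208.72 and 181.60 FPKM in KO libraries, against 200.38, 184.67 and 173.35 FPKM in Ctr libraries. Within each replicate number the KO library was the higher of the pair, but the groups overlapped. The means were 206 ± 23.5 FPKM in KO and 186 ± 13.6 FPKM in Ctr (SD, n = 3 each), and the mean over all 6 libraries lay above that of 96.4% of the 12770 genes tested. The log2 difference of 0.14 ± 0.10 (SE) had the smallest unadjusted p of these genes in the limma fit across all genes, 0.201, and an adjusted p of 0.9996.

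H2-D1 (ENSMUSG00000073411, chromosome 17, 35262730 to 35267499, plus strand), the H2-D heavy chain, had 107.75, 81.70 and 81.74 FPKM in KO libraries, against 97.87, 78.59 and 77.66 FPKM in Ctr libraries. The library numbered 1 was the highest in each group, and the groups overlapped. The log2 difference was 0.09 ± 0.14 (SE; limma adjusted p = 0.9996). The ratio of H2-K1 to H2-D1 lay between 2.12 and 2.56 in KO libraries and between 2.05 and 2.35 in Ctr libraries, so H2-K1 stood above H2-D1 in every library.

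B2m (ENSMUSG00000060802, chromosome 2, 122147686 to 122153083, plus strand) had 227.97, 192.21 and 209.94 FPKM in KO libraries, against 235.84, 192.60 and 199.73 FPKM in Ctr libraries. The means were 210 ± 17.9 FPKM in KO and 209 ± 23.2 FPKM in Ctr (SD, n = 3 each). The log2 difference was 0.01 ± 0.10 (SE; limma adjusted p = 0.9996), with a 95% confidence interval of −0.23 to 0.25. The levels of B2m and H2-K1 overlapped in both groups. B2m transcripts share no 50-base stretch with another gene of the annotation.

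**Figure D1:**
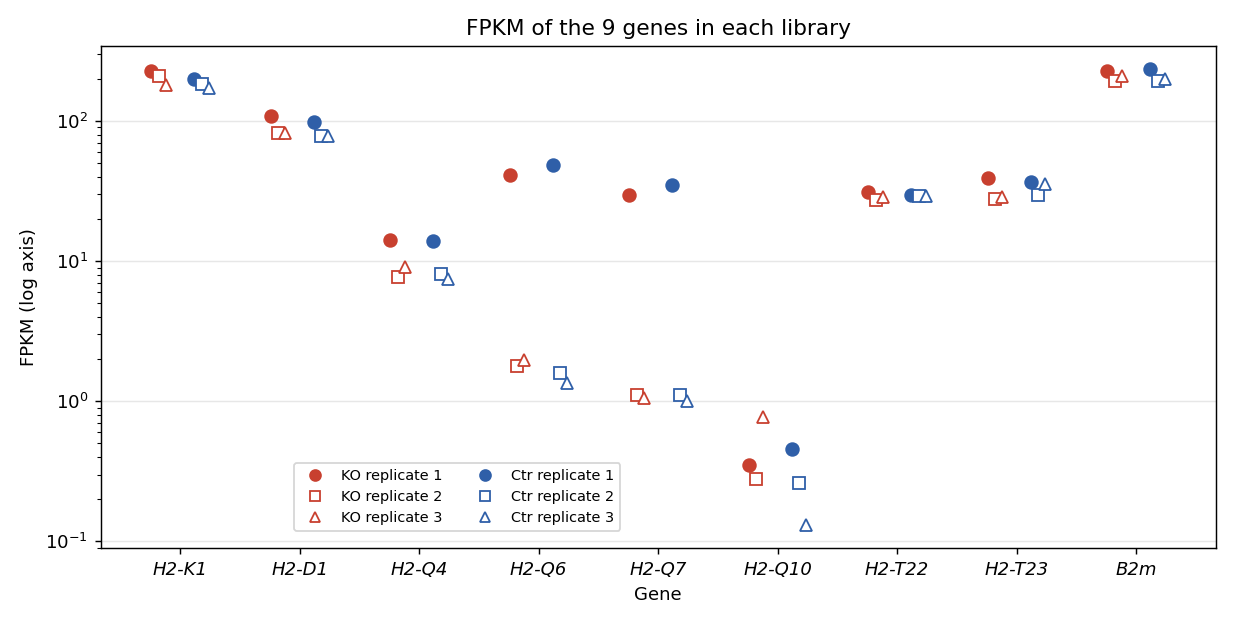
FPKM (log axis) of the 9 genes in each library, with KO replicates left of Ctr replicates and filled circles for the libraries numbered 1. H2-Q6 and H2-Q7 sit at 29.86 to 48.40 FPKM in both libraries numbered 1 and at 1.0 to 1.98 FPKM in the other 4, while H2-K1, H2-D1, H2-T22, H2-T23 and B2m lie within a narrow range in all 6.

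H2-Q6 and H2-Q7 lie next to each other in the Q region and encode heavy chains of the Qa-2 type; Qa-2 is a nonclassical molecule that is tied to the membrane by a lipid anchor. H2-Q6 (ENSMUSG00000073409, chromosome 17, 35424850 to 35430055, plus strand) had 41.23, 1.77 and 1.98 FPKM in KO libraries, against 48.40, 1.60 and 1.36 FPKM in Ctr libraries. H2-Q7 (ENSMUSG00000060550, chromosome 17, 35439155 to 35443773, plus strand) had 29.86, 1.11 and 1.05 FPKM in KO libraries, against 34.97, 1.11 and 1.0 FPKM in Ctr libraries. Both genes were high in the libraries numbered 1 of both groups and low in the other 4, which are the values they were chosen on. The library numbered 1 held 21.99 times the mean of the other libraries of its group for H2-Q6 in KO and 32.7 times in Ctr. For H2-Q7 it held 27.7 times that mean in KO and 33.2 times in Ctr.

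At the estimated depth, the H2-Q6 values stand for about 1523, 56 and 57 fragments in KO libraries and 1548, 53 and 45 fragments in Ctr libraries. Those of H2-Q7 stand for about 1046, 33 and 29 fragments in KO and 1061, 35 and 32 fragments in Ctr. These counts take the smallest step of the low values as 1 fragment, and would all be lower by the same factor if a step were only part of a fragment. Both genes had signal in every library, at a low level in 4 of them. The ratio of H2-Q6 to H2-Q7 was 1.38, 1.60 and 1.89 in KO libraries and 1.38, 1.44 and 1.36 in Ctr libraries, so the pair kept the same order in all 6 libraries. Of the 50-base stretches of the protein-coding transcripts of H2-Q6, 13.9% also occur in H2-Q7, and of those of H2-Q7, 17% occur in H2-Q6, so part of their reads cannot be told apart by sequence. Their summed FPKM, which depends less on that division, was 71.09, 2.88 and 3.03 in KO libraries and 83.37, 2.71 and 2.36 in Ctr libraries. Any other gene of the annotation shared 26.2% of the H2-Q6 stretches and 34.9% of the H2-Q7 stretches. H2-D1 shared 5.5% and 7.4% of them, and it stood at 77.66 to 81.74 FPKM in the 4 libraries where the pair was low. Whether reads of other genes add to the low values of the pair was not tested.

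Markers of podocytes and of endothelium moved with these values. The 4 podocyte markers reported here (Nphs1, Podxl, Wt1 and Synpo; podocytes are the filtering epithelium of the glomerulus) summed to 152.0, 6.86 and 8.39 FPKM in KO libraries, against 202.1, 12.10 and 8.86 FPKM in Ctr libraries. The 12 endothelial markers, among them Pecam1, Emcn and Ehd3, summed to 213.8, 31.36 and 24.42 FPKM in KO libraries, against 265.0, 38.86 and 27.67 FPKM in Ctr libraries. In both libraries numbered 1, all 4 podocyte markers and all 12 endothelial markers stood above the other 4 libraries. The same held for 11.9% of all genes tested. Nphs1 and Wt1 were under 1 FPKM in each of the other 4 libraries. They passed the minimum mean of 1 FPKM only through the libraries numbered 1, so their place there was fixed in advance. Of the 10 markers of the thick limb, distal tubule and collecting duct, 1 stood above the other 4 libraries in both libraries numbered 1. The part of all these markers in the H2-Q6 and H2-Q7 values was not tested. In such bulk RNA fewer cells of a type and less RNA per cell cannot be told apart.

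The sums of immune cell markers were lower in level and were highest in the library numbered 1 of each group. The 8 leukocyte markers summed to 10.15, 1.75 and 1.63 FPKM in KO libraries, against 10.91, 2.21 and 1.31 FPKM in Ctr libraries. The 12 markers of macrophages and dendritic cells summed to 10.64, 4.23 and 2.12 FPKM in KO libraries, against 13.10, 3.88 and 3.31 FPKM in Ctr libraries. Lyz2, the lysozyme gene of myeloid cells, had 6.14, 0.37 and 0.24 FPKM in KO and 7.58, 0.39 and 0.24 FPKM in Ctr, and so made up much of that sum in the libraries numbered 1. Csf1r, a receptor of macrophages and the other gene of that list that passed the minimum for the test, had 1.38, 1.93 and 1.26 FPKM in KO and 1.20, 2.29 and 2.13 FPKM in Ctr and was not raised in either library numbered 1. The 11 lymphocyte markers summed to 1.18 to 3.64 FPKM in KO libraries and 1.13 to 2.88 FPKM in Ctr libraries, and the 8 markers of fibroblasts and pericytes summed to 8.35 to 26.68 FPKM in KO libraries and 9.66 to 27.69 FPKM in Ctr libraries. None of the markers in these 4 lists or in the podocyte and endothelial lists was at 0 in all 6 libraries, and their part in the class I values was not tested.

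**Figure D2:**
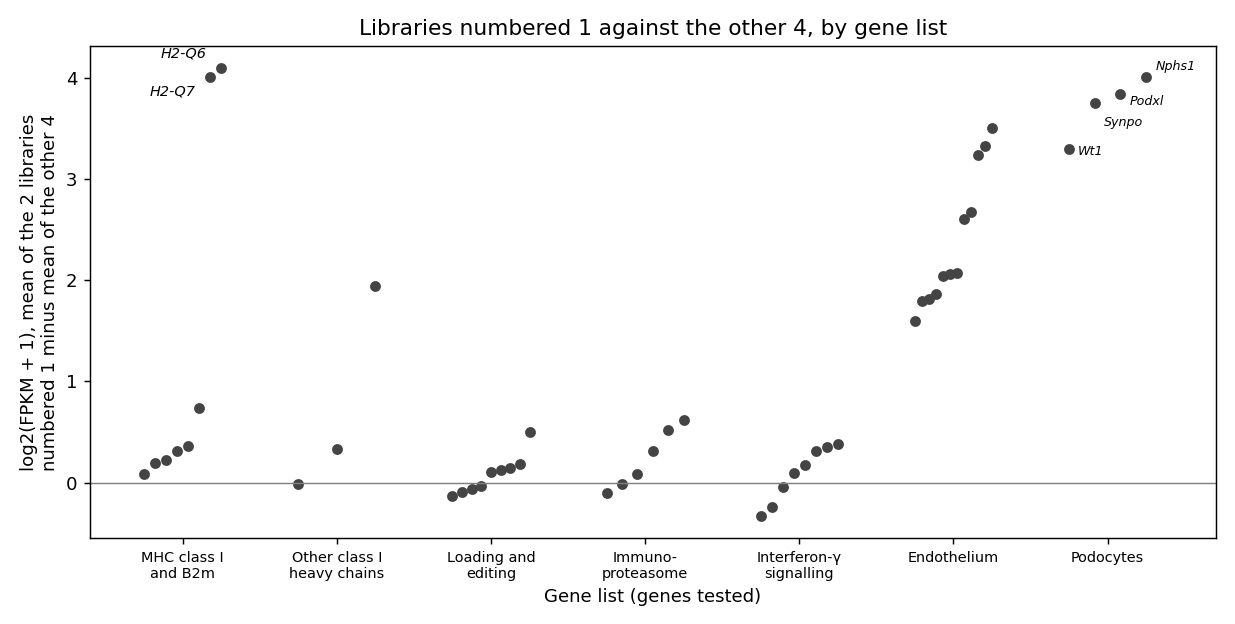
Difference of mean log2(FPKM + 1) between both libraries numbered 1 and the other 4, for each gene tested in 7 gene lists (1 point per gene). H2-Q6 (4.10) and H2-Q7 (4.01) were chosen on these values. The podocyte markers run from 3.30 to 4.01 (median 3.80) and the endothelial markers from 1.60 to 3.50 (median 2.07), so these lists overlap. The podocyte markers Nphs1 and Wt1 passed the minimum for the test only through the libraries numbered 1. The medians of the loading, immunoproteasome and interferon-gamma lists are 0.10, 0.20 and 0.13, and that of the other class I heavy chains is 0.33. The interferon-stimulated genes, which are not plotted, had a median of 0.23.

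On the scale of log2(FPKM + 1), the mean of both libraries numbered 1 was above the mean of the other 4 by 4.10 for H2-Q6 and 4.01 for H2-Q7, which were the sixth and the eighth highest differences of the 12770 genes tested. Differences of at least 1 were seen in 256 genes (2.0%) and of at most −1 in 49 genes, around a median of −0.00 over all genes. Among the 6 tested class I genes that were not chosen on these values, the difference was 0.73 for H2-Q4, 0.36 for H2-D1, 0.31 for H2-T23, 0.22 for B2m, 0.20 for H2-K1 and 0.08 for H2-T22. In 5 of these 6, all except H2-K1, both libraries numbered 1 lay above the other 4, as did 11.9% of all genes tested. H2-Q4 thus came nearest to the Qa-2 pair, and H2-T22 differed least. H2-Q4 shares part of its sequence with H2-Q6, and whether H2-Q6 reads add to its difference was not tested.

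The genes with the profile nearest to that of H2-Q7 over the 6 libraries, by the root mean square distance between centred log2(FPKM + 1) values, were Sfrp2 (0.08), H2-Q6 (0.10), Clic3 (0.13), Nphs1 (0.15), Plat (0.19) and Synpo (0.22). The same set, with H2-Q7 in place of H2-Q6, was nearest to H2-Q6. Nphs1, which encodes nephrin of the podocyte slit diaphragm, had 18.14, 0.22 and 0.61 FPKM in KO libraries, against 23.71, 0.44 and 0.18 FPKM in Ctr libraries. Sfrp2, a secreted Wnt modulator, had 16.99, 0.17 and 0.26 FPKM in KO libraries, against 19.72, 0.38 and 0.11 FPKM in Ctr libraries. Plat, tissue plasminogen activator, had 62.31, 2.41 and 3.04 FPKM in KO libraries, against 88.82, 3.17 and 2.73 FPKM in Ctr libraries. These genes were low in 4 libraries and high in both numbered 1, and they lie on other chromosomes. The Qa-2 pair was chosen on that pattern, so a search by its profile could only return genes that share it. Sfrp2, Clic3 and Nphs1 were under 1 FPKM in each of the other 4 libraries. They passed the minimum for the test only through the libraries numbered 1. Nearest to B2m were Npc2, Ttl, Iah1, 4732463B04Rik, Ngrn and Snrk, at distances of 0.02 to 0.04.

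H2-Q4 (ENSMUSG00000035929, chromosome 17, 35379617 to 35385290, plus strand), another nonclassical Q gene, had 14.23, 7.71 and 9.05 FPKM in KO libraries, against 13.83, 8.08 and 7.41 FPKM in Ctr libraries. It was highest in both libraries numbered 1, at 1.70 times the mean of the other KO libraries and 1.79 times that of the other Ctr libraries. Of the 50-base stretches of H2-Q4, 7.7% also occur in H2-Q6, so reads from those stretches cannot be told apart by sequence. H2-Q5, a polymorphic pseudogene between H2-Q4 and H2-Q6 that is not among the 9 genes, had 5.05, 0.40 and 0.69 FPKM in KO libraries, against 4.86, 0.62 and 0.49 FPKM in Ctr libraries. It shares 17.4% of the 50-base stretches of H2-Q7, and reads from those stretches cannot be told apart by sequence. H2-Q10 (ENSMUSG00000067235, chromosome 17, 35470089 to 35474563, plus strand) encodes a secreted heavy chain known from liver. It had 0.35, 0.28 and 0.77 FPKM in KO libraries, against 0.46, 0.26 and 0.13 FPKM in Ctr libraries, about 5 to 25 fragments per library. It was the lowest of the 9 genes in every library, and its mean was under the minimum of 1 FPKM for the test.

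H2-T23 and H2-T22 lie farther along chromosome 17. H2-T23 (ENSMUSG00000067212, 36029773 to 36032855, minus strand) encodes Qa-1, which presents leader peptides of other class I chains to CD94/NKG2 receptors of natural killer cells. It had 39.07, 27.77 and 28.56 FPKM in KO libraries, against 36.80, 29.86 and 35.64 FPKM in Ctr libraries. The groups overlapped, and the log2 difference was −0.11 ± 0.15 (SE; limma adjusted p = 0.9996). H2-T22 (ENSMUSG00000056116, 36037128 to 36042747, minus strand) encodes a molecule that some gamma-delta T cells recognise. It had 31.27, 27.48 and 28.74 FPKM in KO libraries, against 29.51, 29.24 and 29.12 FPKM in Ctr libraries. Its Ctr libraries spanned less than 1 FPKM, and its log2 difference was −0.01 ± 0.07 (SE; limma adjusted p = 0.9996), with a 95% confidence interval of −0.18 to 0.17. H2-T22 shares 37.5% of its 50-base stretches with H2-T10, which stood at 0.12 to 0.26 FPKM in KO libraries and 0.19 to 0.41 FPKM in Ctr libraries.

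Ordered by level, B2m and H2-K1 came first and overlapped, H2-D1 followed at 81.70 to 107.75 FPKM in KO libraries and 77.66 to 97.87 FPKM in Ctr libraries, and H2-T23 and H2-T22 overlapped below it. In the 4 libraries numbered 2 and 3, H2-Q4 came next, then H2-Q6, H2-Q7 and H2-Q10, with no overlap between neighbours. In both libraries numbered 1 that order was different: H2-Q6 stood above H2-T23, H2-T22 and H2-Q4, and H2-Q7 above H2-Q4.

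The 8 heavy chains summed to 492.1, 356.5 and 333.5 FPKM in KO libraries, against 462.2, 333.4 and 325.7 FPKM in Ctr libraries. H2-Q6 and H2-Q7 together made up 14.5%, 0.808% and 0.909% of that sum in KO libraries, against 18.0%, 0.813% and 0.725% in Ctr libraries. Without this pair the sum was 421.0, 353.7 and 330.5 FPKM in KO libraries, against 378.9, 330.7 and 323.3 FPKM in Ctr libraries. Both libraries numbered 1 thus remained the highest of their group without the pair, by a smaller margin. H2-K1 and H2-D1 together held 68.3% to 81.5% of the sum in KO libraries and 64.5% to 79.0% in Ctr libraries. B2m stood at 0.463, 0.539 and 0.630 times the heavy-chain sum in KO libraries, against 0.510, 0.578 and 0.613 times in Ctr libraries. Against the sum without H2-Q6 and H2-Q7, the ratio was 0.542, 0.544 and 0.635 in KO libraries and 0.623, 0.582 and 0.618 in Ctr libraries, so without the pair, which was chosen for its level there, Ctr replicate 1 had the highest ratio of its group and KO replicate 1 was close to KO replicate 2.

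**Figure D3:**
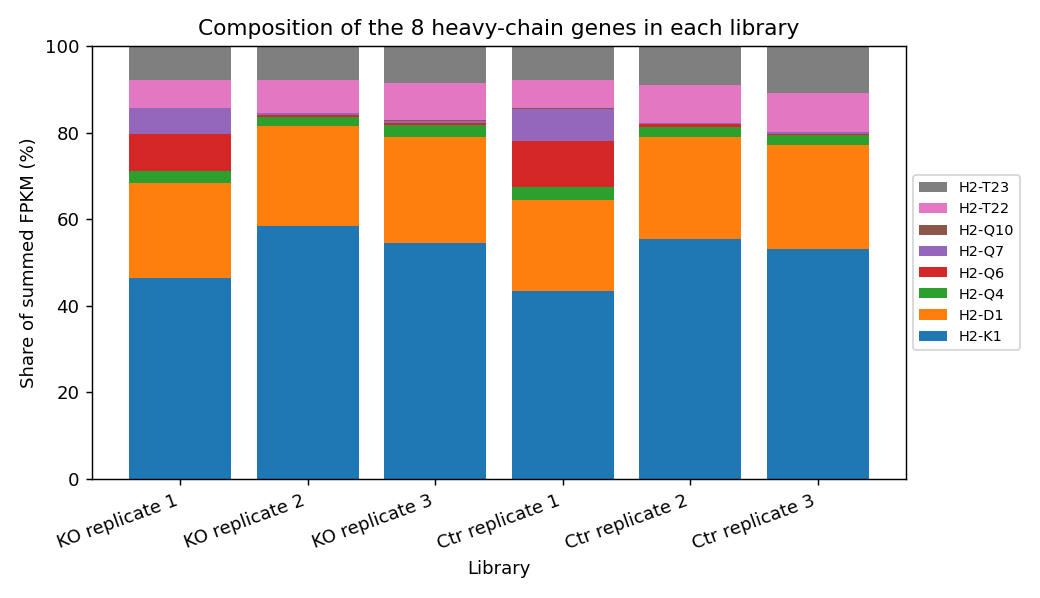
Share of the summed FPKM of the 8 heavy-chain genes that each gene holds (%), by library, with KO libraries left of Ctr libraries. H2-Q6 and H2-Q7 together take 14.5% in KO replicate 1 and 18.0% in Ctr replicate 1 and under 1% in the other 4 libraries.

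No class I gene differed between KO and Ctr by the test across all genes. Of the 8 genes tested, 0 had a limma adjusted p under 0.05 and 0 an unadjusted p under 0.05. Over all 12770 genes, 0.0235% passed the adjusted threshold in either direction, 1.82% had an unadjusted p under 0.05 and were higher in KO, and 1.69% had one and were lower in KO. Estimates were positive for 5 genes and negative for 3, with a median of 0.04 on the log2 scale, against −0.02 over all genes tested. In 0 of the 8 genes did all KO libraries lie above all Ctr libraries, as they did in 3.89% of all genes, and in 0 did they lie below, as they did in 4.7%.

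The width of the intervals differed between members. The log2 difference of H2-Q6 was 0.07 ± 1.45 (SE; 95% confidence interval −3.36 to 3.49) and that of H2-Q7 was −0.06 ± 1.42 (SE; −3.41 to 3.29), both with a limma adjusted p of 0.9996. Each group holds 1 high and 2 low libraries for both genes. Without both libraries numbered 1, the estimate was 0.21 ± 0.18 for H2-Q6 and 0.02 ± 0.19 for H2-Q7 (SE; limma adjusted p = 0.999 for both). Leaving out KO replicate 1 alone or Ctr replicate 1 alone moved the H2-Q6 estimate to −1.23 or 1.51 and the H2-Q7 estimate to −1.36 or 1.31. Set beside each other by replicate number, KO held 0.852, 1.11 and 1.46 times the Ctr FPKM of H2-Q6 and 0.854, 1.0 and 1.05 times that of H2-Q7. For H2-Q4 the estimate was 0.08 ± 0.27 (SE; limma adjusted p = 0.9996). With the replicate number as a block, the SE was 0.13 for H2-Q6 and 0.11 for H2-Q7 (limma adjusted p = 0.958 and 0.955). Without both libraries numbered 1, the 95% confidence interval was −0.21 to 0.64 for H2-Q6 and −0.45 to 0.48 for H2-Q7. Both genes were chosen for standing out in the libraries numbered 1, so this narrowing was fixed in advance. The block was itself taken from these data. A p that misses the threshold does not show that the groups were alike.

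**Figure D4:**
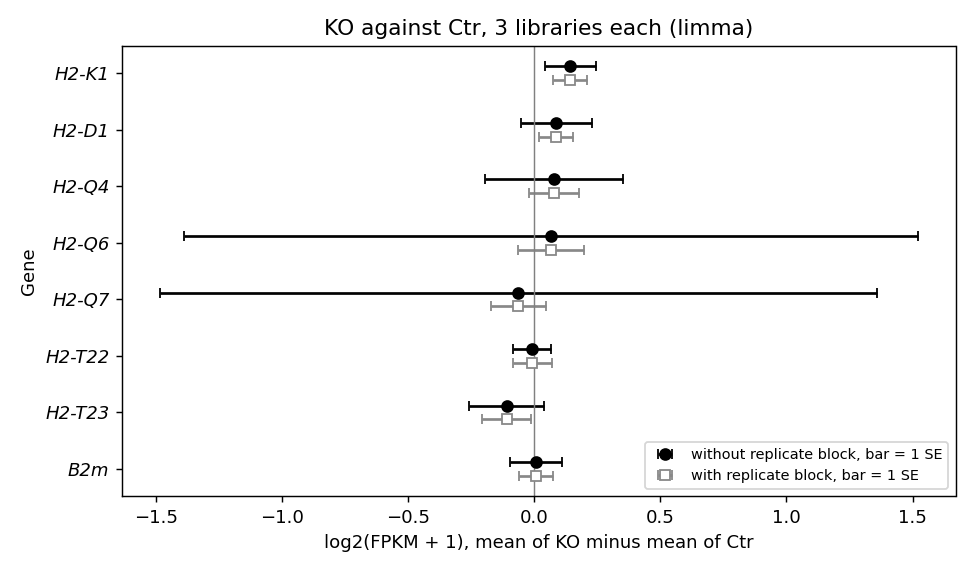
Log2 difference between KO and Ctr (mean of log2(FPKM + 1)) for the 8 genes tested, with bars of 1 SE, from the fit without a replicate block (filled circles) and with it (open squares). All 8 estimates lie between −0.11 and 0.14, and the bars of H2-Q6 and H2-Q7 reach 1.45 and 1.42 to each side without the block and 0.13 and 0.11 with it.

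The genes that load peptides onto class I were measured in the same libraries. Of 9 loading and editing genes, all tested, 0 passed the adjusted threshold. Over all genes tested, 1.82% had a limma unadjusted p under 0.05 and were higher in KO, and 1.69% were lower. In this list 1 gene had one. This was Tap2, a subunit of the peptide transporter, with 12.16, 12.07 and 9.91 FPKM in KO libraries, against 9.98, 9.47 and 8.40 FPKM in Ctr libraries (log2 difference 0.27 ± 0.11, SE; limma unadjusted p = 0.0453, adjusted p = 0.9996). The groups of Tap2 overlapped by 1 KO library. Its partner Tap1 had 5.46, 3.25 and 3.00 FPKM in KO libraries, against 4.75, 3.61 and 3.39 FPKM in Ctr libraries, with both libraries numbered 1 on top. The median log2 difference of the list between KO and Ctr was −0.03.

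Of the 6 genes of the immunoproteasome and its activator, which cut proteins into class I peptides, 0 passed either threshold and the median log2 difference was 0.05. Psmb8 had 5.74, 3.02 and 2.49 FPKM in KO libraries, against 5.30, 3.66 and 4.0 FPKM in Ctr libraries. Psmb9 had 3.84, 1.75 and 1.80 FPKM in KO libraries, against 2.38, 1.65 and 2.14 FPKM in Ctr libraries. Psmb10, the other catalytic subunit, had 18.65, 13.37 and 9.83 FPKM in KO libraries, against 10.62, 13.14 and 9.05 FPKM in Ctr libraries. Psmb8 and Psmb9 were highest in the library numbered 1 of each group, and Psmb10 was so in KO but not in Ctr. In 2 of the 6 genes, Psmb8 and Psmb9, both libraries numbered 1 lay above the other 4, against 11.9% of all genes tested.

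Of 11 tested genes among 12 transactivators of class I, 1 had an unadjusted p under 0.05 and 0 passed the adjusted threshold. Over all genes tested, 1.82% had such an unadjusted p and were higher in KO, and 1.69% were lower. Nfyb, a subunit of the factor that binds CCAAT, had 6.72, 6.39 and 6.47 FPKM in KO libraries, against 7.60, 9.34 and 7.57 FPKM in Ctr libraries (log2 difference −0.28 ± 0.10, SE; limma unadjusted p = 0.0293, adjusted p = 0.9996). All KO libraries lay below all Ctr libraries for Nfyb, as they did in 4.7% of all genes tested. Nlrc5, the class I transactivator, had 0.36, 0.16 and 0.36 FPKM in KO libraries, against 0.62, 0.07 and 0.50 FPKM in Ctr libraries, and was under the minimum for the test. Irf1, an interferon-responsive activator of class I, had 16.96, 32.04 and 30.99 FPKM in KO libraries, against 23.65, 26.51 and 24.47 FPKM in Ctr libraries. Irf1 was lowest in the library numbered 1 of each group.

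The interferon lists gave no call either. Of 9 genes of interferon-gamma signalling 8 were tested and of 32 interferon-stimulated genes 25 were tested, with 0 past the adjusted threshold and 0 with an unadjusted p under 0.05 in both lists. Their median log2 differences between KO and Ctr were −0.00 and −0.02. In 13 of the 25 tested interferon-stimulated genes both libraries numbered 1 lay above the other 4, as they did in 11.9% of all genes tested. The MHC class II pathway, which presents peptides from outside the cell, had 6 of 12 genes tested and 0 past either threshold. Cd74, the class II invariant chain, had 23.45, 16.26 and 12.99 FPKM in KO libraries, against 17.47, 13.01 and 13.78 FPKM in Ctr libraries, and its groups overlapped.

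Other class I genes were few at this depth. Of 19 further heavy-chain genes listed, 16 are in the table, 3 passed the minimum and 6 were at 0 in all libraries. Of the 3 tested, H2-Q2 had 3.53, 3.33 and 3.66 FPKM in KO libraries, against 2.77, 3.48 and 2.35 FPKM in Ctr libraries, with overlapping groups. Of 11 class I-like genes 5 were tested, and 1 of them had an unadjusted p under 0.05. Over all genes tested, 1.82% had such a limma p and were higher in KO, and 1.69% were lower. Azgp1, a soluble class I-like glycoprotein, had 8.56, 8.14 and 9.68 FPKM in KO libraries, against 14.82, 10.99 and 11.99 FPKM in Ctr libraries (log2 difference −0.47 ± 0.12, SE; limma unadjusted p = 0.00697, adjusted p = 0.9996). All KO libraries lay below all Ctr libraries for Azgp1, as they did in 4.7% of all genes tested. Fcgrt, the heavy chain of the neonatal Fc receptor, which also pairs with beta-2-microglobulin, had 167.67, 140.80 and 153.84 FPKM in KO libraries, against 153.78, 173.01 and 174.14 FPKM in Ctr libraries, and its groups overlapped.

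Genes that start within 500 kb of the members were set beside them. Of 95 such genes tested on chromosome 17, 2 had a log2 difference of at least 1 between both libraries numbered 1 and the other 4, 0 had one of at most −1, and the median was 0.06. Over all genes tested, 2.0% had a difference of at least 1, so the share among these neighbours was near the background. The pair above 1 was H2-Q5 (1.95) and Mir1894 (1.81), whose FPKM was 11.98, 0.00 and 7.42 in KO libraries and 6.37, 0.00 and 6.16 in Ctr libraries and so did not set the libraries numbered 1 apart. Next came Kank3 (0.96), H2-Aa (0.80) and Psmb8 (0.62). Between KO and Ctr, 0 of all 102 neighbours tested, on both chromosomes, passed the limma adjusted threshold, against 0.0235% of all genes tested. A limma unadjusted p under 0.05 was seen in 7 of the 102, most of them higher in KO. Over all genes tested, 1.82% had one and were higher in KO, and 1.69% were lower. The share was thus larger among the neighbours, and whether it exceeds the background was not tested.

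**Figure D5:**
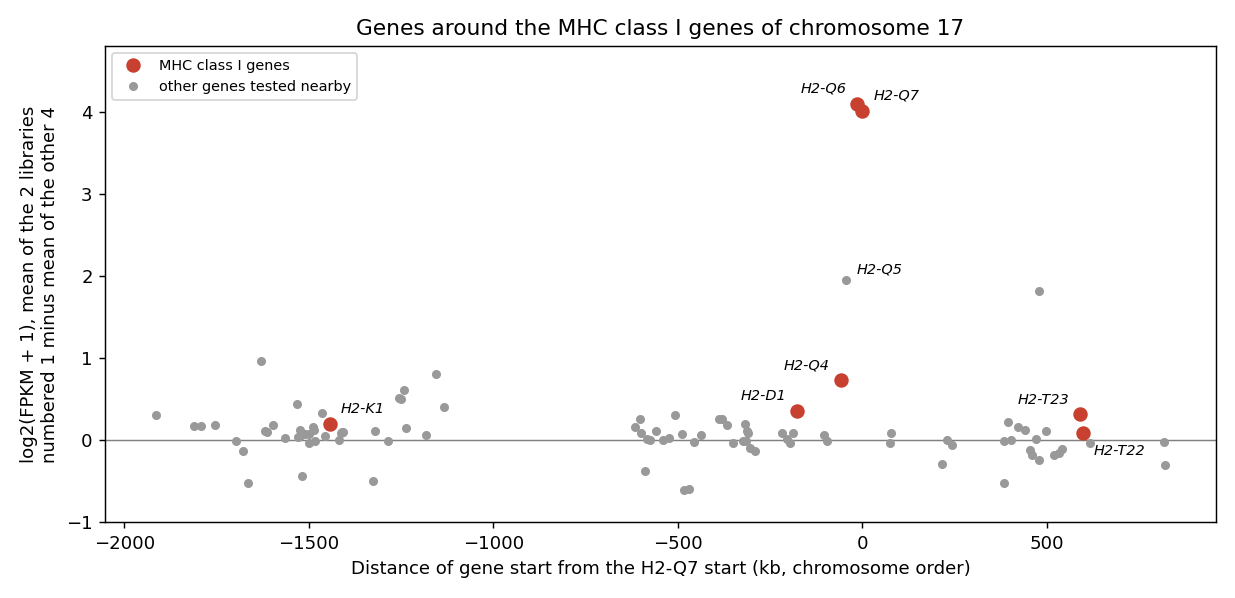
Difference of mean log2(FPKM + 1) between both libraries numbered 1 and the other 4, for tested genes that start within 500 kb of a class I member on chromosome 17, by distance of the gene start from that of H2-Q7 (kb). H2-Q6 and H2-Q7 stand at 4.10 and 4.01, H2-Q5 at 1.95, and the median of the other genes nearby is 0.06.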

How the data were processed

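The 6 libraries (3 KO and 3 Ctr) were prepared from total RNA with the NEBNext Ultra II Directional kit, which keeps strand, as the labels' protocols state. The authors deposited 1 table of FPKM values with 2 decimals. The submitters' processing notes list STAR 2.6.0c, RSEM and DESeq2 1.28.1 without saying what each did, and the sources used here give neither the genome build and annotation nor whether strand was used. FPKM shares out each library's total, so a few abundant genes can shift the rest, and reads that fit several class I genes may have been divided by an estimate. Depth, which is approximate, was estimated by taking the steps of low values as 1 fragment each in genes with 1 transcript, at 19800000 to 25400000 fragments per library, and 79.5% to 83.0% of those values lay within 0.2 fragments of a whole number.

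From there, values were taken as log2(FPKM + 1), a scale that understates changes of low genes, and genes with a mean of at least 1 FPKM over the 6 libraries (12770) were fitted with limma 3.58.1 (R 4.3.3, variance trend on intensity). Tests were two-sided, with p-values adjusted over all of them by Benjamini-Hochberg and a threshold of 0.05. The fit was tested on simulated data. The spread between libraries was capped in those data, so genes as variable as H2-Q6 and H2-Q7 were not covered. Exact permutation of 3 against 3 libraries could not give a p under 0.1 and was not used. Coordinates are those of GENCODE M21 (GRCm38), which held 52093 of the 52405 identifiers (99.4%). Shared sequence was counted as 50-base stretches of protein-coding transcripts, and promoters were aligned with Biopython 1.88. The labels call the libraries biological replicates; whether any share an animal is not stated, and p-values measure the spread between libraries. No 2 libraries were identical. Same-numbered KO and Ctr libraries deviated together from their group means (r = 0.626, 0.293 and 0.368 for numbers 1, 2 and 3), so the numbers were treated as pairs in an alternative fit. This comes from the data, not from the labels, and numbers 2 and 3 were not set apart from each other: KO replicate 2 with Ctr replicate 3 gave r = 0.297 and KO replicate 3 with Ctr replicate 2 gave 0.155. The members and the gene lists were chosen with earlier results of these data known. Named are the 9 genes, Igf1r, up to 4 genes of each list by the smallest p (3 for markers of other cell types) with further list genes named for their role after their values were seen, the 6 nearest profiles to H2-Q6, H2-Q7 and B2m, and the 5 neighbours with the largest difference between the libraries numbered 1 and the others. Some genes of the lists are not reported here.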

Additional observations from a re-analysis of the deposited data

How the results depend on the processing

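None of the class I genes or B2m was called in either direction under any alternative tried: pseudocounts of 0.1 and 0.5, no filter on low values, a minimum mean of 5 FPKM, quantile normalization, limma without trend, the replicate block, leaving out each library, and leaving out both libraries numbered 1. Over all genes, 2 were called higher in KO; this was 1 without a filter, 1 with a minimum of 5 FPKM, 4 without both libraries numbered 1, and 0 to 3 when single libraries were left out. For genes called lower, 1 became 0 with pseudocounts of 0.1 or 0.5, a minimum of 5 FPKM or quantile normalization, 2 without a filter, and 0 to 1 when single libraries were left out. With the replicate block, the pairing by number, 3 genes were called higher and 1 lower, and no class I call changed; the limma adjusted p of H2-K1 was then 0.880.

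Of the members' log2 differences, 17 changed sign and 95 did not. H2-Q7 was 0.018 without both libraries numbered 1, and H2-T22 was 0.0058 after quantile normalization. Leaving out single libraries gave −0.043 to 0.20 for H2-D1, −0.16 to 0.33 for H2-Q4, −1.23 to 1.51 for H2-Q6, −1.36 to 1.31 for H2-Q7, −0.058 to 0.032 for H2-T22 and −0.054 to 0.095 for B2m, whereas H2-K1 stayed at 0.07 to 0.23 and H2-T23 at −0.26 to −0.02. The cause was not tested. With 3 libraries per group, the 95% interval reached 0.29 to either side of the estimate (log2 scale; median over all genes tested). H2-Q10, at about 5 to 25 fragments per library, was under the minimum for the test.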
